A study of Bos taurus with 15 samples.

Results

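The 4 genes described here, listed as ENSBTAG00000000512, ENSBTAG00000021301, ENSBTAG00000009468 and ENSBTAG00000001514, are 4 of the 24616 Ensembl identifiers measured in bovine mammary tissue. They were chosen by their normalized counts, as genes among the largest rises between 0 and 12 h post-DEX in cows 2 to 4, so that rise is given as a description and not as a test. DEX is dexamethasone, a synthetic glucocorticoid. Non-pregnant, multiparous Holstein cows in lactation each received 40 mg of DEX as an intramuscular injection, and the mammary gland was biopsied with a needle just before the injection (0 h) and then 12, 24 and 72 h later. There was no untreated cow, so the 0 h biopsy of the same animal is the control, and all cows were given ampicillin over the biopsy period. Cows 2, 3 and 4 have a library at each of the 4 time points, and cow 1 has libraries at 0, 12 and 24 h, which gives 15 libraries. Cow 1 is taken to be the animal withdrawn after it ceased ruminating, since it has no 72 h library, and its values are kept apart from those of the other cows.

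Time and gland changed together in this design, and at 12 h also the hour of the day. The labels number the glands (QTR) of each udder, and all cows were biopsied in gland 1 at first, in gland 2 after 12 h, in gland 3 after 24 h and in gland 4 after 72 h. Since the injections were given in the evening, the 12 h biopsies were taken in the morning and all others in the evening. In every comparison the effects of time after DEX and of the gland cannot be told apart, and in comparisons with 12 h neither can that of the hour. In these bulk samples, fewer cells of a type and less RNA per cell cannot be told apart either. Libraries held between 1804120 and 6228132 reads on genes, the shallowest being that of cow 4 at 0 h, and 3 reads, taken as the most that a count of 0 allows, are worth between 0.464 and 1.74 normalized counts. Intervals and limits from reads cover counting error only.

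Glucocorticoids such as DEX enter cells and bind the glucocorticoid receptor, a transcription factor that then moves to the nucleus and binds DNA near its target genes. Transcripts of direct targets can rise within hours of exposure and decline again as the ligand is cleared. In the lactating mammary gland the receptor acts with prolactin signaling on milk protein genes. The identifiers of the file carry no gene symbols, and none of the 37063 genes in the RefSeq table used here (assembly ARS-UCD2.0) is paired with an Ensembl identifier. The 4 genes are therefore given by identifier, no role can be stated for any of them, and no sequence is shown. For the same reason, the labelled tissue was not checked against milk protein or other cell type markers.

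At 0 h, the level of the 4 genes spanned a wide range, from nearly absent to moderately abundant. Reads were taken from the end of each transcript, so normalized counts of different genes can be set side by side without a correction for length. ENSBTAG00000000512 averaged 0.366 ± 0.188 normalized counts (SD, n = 3 cows), from 1 read in each of cows 2, 3 and 4, and ranked 9149 of the 13525 genes tested. ENSBTAG00000021301 averaged 3.05 ± 1.38, ENSBTAG00000009468 averaged 12.7 ± 5.59, and ENSBTAG00000001514 averaged 38.8 ± 29.1 and ranked 873. Neighbors in this order were separated in all 3 cows, except that the values of ENSBTAG00000001514 (7.46 to 64.8) included those of ENSBTAG00000009468 (8.78 to 19.1). Cow 4 had the highest 0 h value of the 3 cows for each of the 4 genes, and it is also the shallowest library, so its values rest on 1, 8, 33 and 112 reads.

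By 12 h post-DEX, each gene stood far above its own 0 h level in every cow. In cows 2 to 4 the 12 h values did not overlap the 0 h values for 4 of the 4 genes. Such a separation was seen for 9.40% of all genes tested, and because the genes were picked on this contrast nothing is read from the comparison. On the log2(normalized count + 0.5) scale the genes held ranks 2, 3, 4 and 5 among 13525, and the smallest of the 4 changes was 4.42 while the gene just below it in rank had 4.03.

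**Figure D1:**
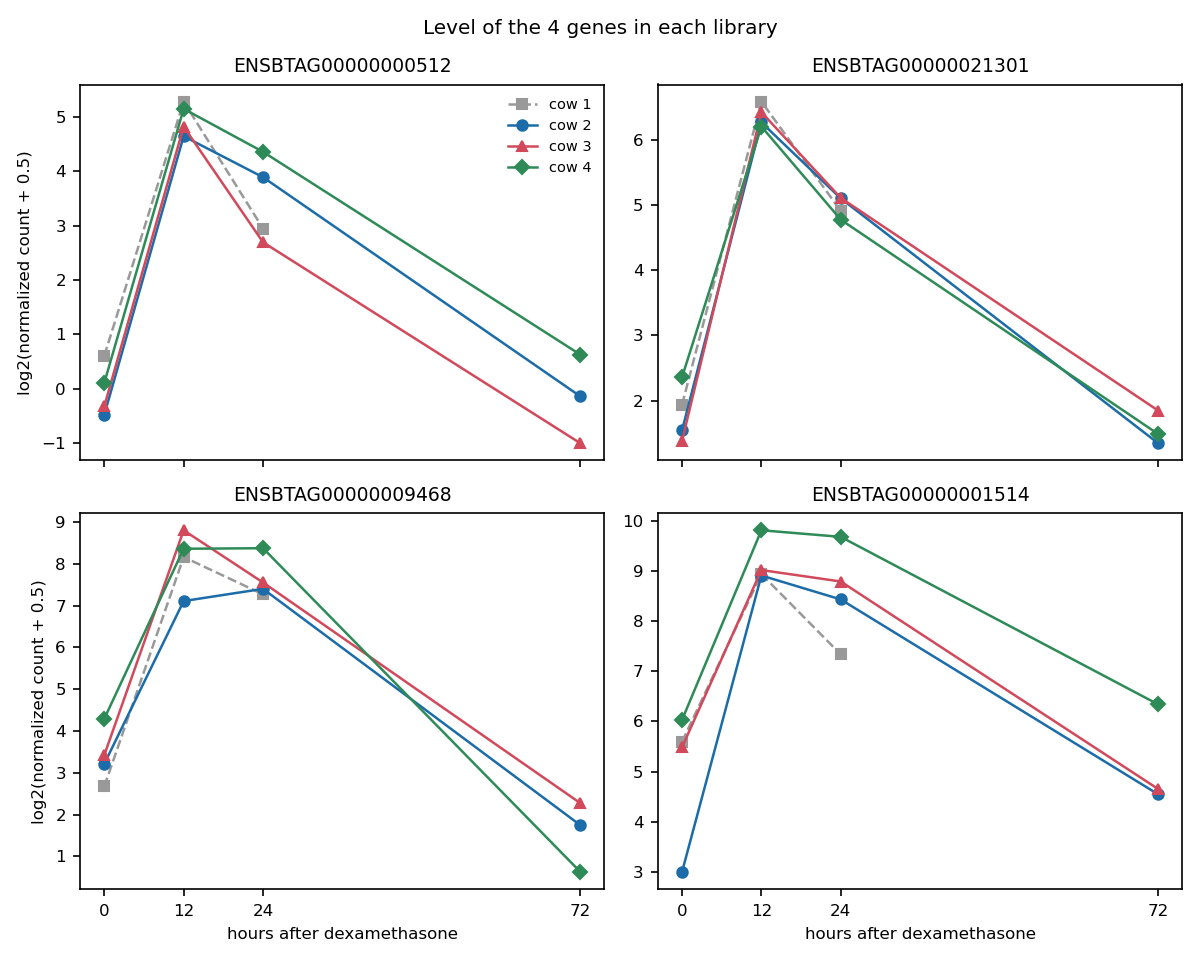
Levels of the 4 genes in each of the 15 libraries, as log2(normalized count + 0.5) against hours after DEX, with a y axis range of its own in each panel. Each line is a cow, with cow 1 dashed and ending at 24 h; the lines peak at 12 h except that of ENSBTAG00000009468 in cow 2 and cow 4 (24 h), and fall steeply between 24 and 72 h.

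ENSBTAG00000000512 went from a level near the limit of detection to a clear signal. Cows 2, 3 and 4 had 0.219, 0.301 and 0.579 normalized counts at 0 h, and 24.45, 27.7 and 34.9 at 12 h, from 111, 135 and 174 reads. The fitted log2 fold change was 5.10 (SE 0.45). The ratios of these values were 111, 92.1 and 60.2, but with 1 read in each denominator the 95% counting interval was 19.6 to 4439.5 for cow 2, 16.2 to 3663 for cow 3 and 10.7 to 2393 for cow 4. The size of this rise is thus poorly fixed, and it moved from 3.70 with a pseudocount of 2 to 6.02 with a pseudocount of 0.1.

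ENSBTAG00000021301 was the most even of the 4 genes at 12 h. Its values were 2.41, 2.11 and 4.63 normalized counts at 0 h in cows 2, 3 and 4, and 76.9, 85.8 and 73.5 at 12 h, a coefficient of variation of 8.01% over the 3 cows at 12 h against 45.2% at 0 h. The fitted log2 fold change was 4.54 (SE 0.25). Cow 4, which started highest, had the smallest ratio (15.9) and cow 3, which started lowest, the largest (40.7).

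ENSBTAG00000009468 differed more between cows at 12 h. It had 8.78, 10.2 and 19.1 normalized counts at 0 h and 137, 446 and 328 at 12 h in cows 2, 3 and 4, so cow 3 reached 3.24 times the level of cow 2 from a similar start. These 12 h values rest on 624, 2172 and 1636 reads, and their 95% counting intervals did not overlap. The fitted log2 fold change was 4.45 (SE 0.42).

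ENSBTAG00000001514 was the most abundant of the 4 genes at each time point and ranked 55 of 13525 at 12 h. Cows 2, 3 and 4 had 7.46, 44.2 and 64.8 normalized counts at 0 h and 482, 519.6 and 902 at 12 h. Cow 2 gained 474 normalized counts and cow 3 gained 475, yet the ratio was 64.6 in cow 2 and 11.8 in cow 3, because cow 2 started from 7.46 (34 reads, 95% counting interval 5.17 to 10.4). The fitted log2 fold change was 4.42 (SE 0.58), and without cow 2 it was 3.66, which placed the gene at rank 11 rather than 5.

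Cow 1 took no part in choosing the genes, so its libraries give the same measurement in an animal the choice did not use. In cow 1, ENSBTAG00000000512 went from 1.02 to 38.3 normalized counts between 0 and 12 h, and ENSBTAG00000021301 from 3.32 to 96.1. In the same libraries ENSBTAG00000009468 went from 5.88 to 286, and ENSBTAG00000001514 from 47.8 to 491. A rise of at least 4-fold on the log2(normalized count + 0.5) scale was seen for 4 of the 4 genes in cow 1, against 0.821% of the 13525 genes. That share includes many genes with few reads, whose changes this scale understates, as do the shares past a fold given below for cow 1 at 24 h. The log2 ratios of the 4 genes, 4.67, 4.66, 5.49 and 3.35, ranked 5, 6, 2 and 19 of all genes in this cow. With 1 library at each time point there is no test of this difference in cow 1.

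**Figure D2:**
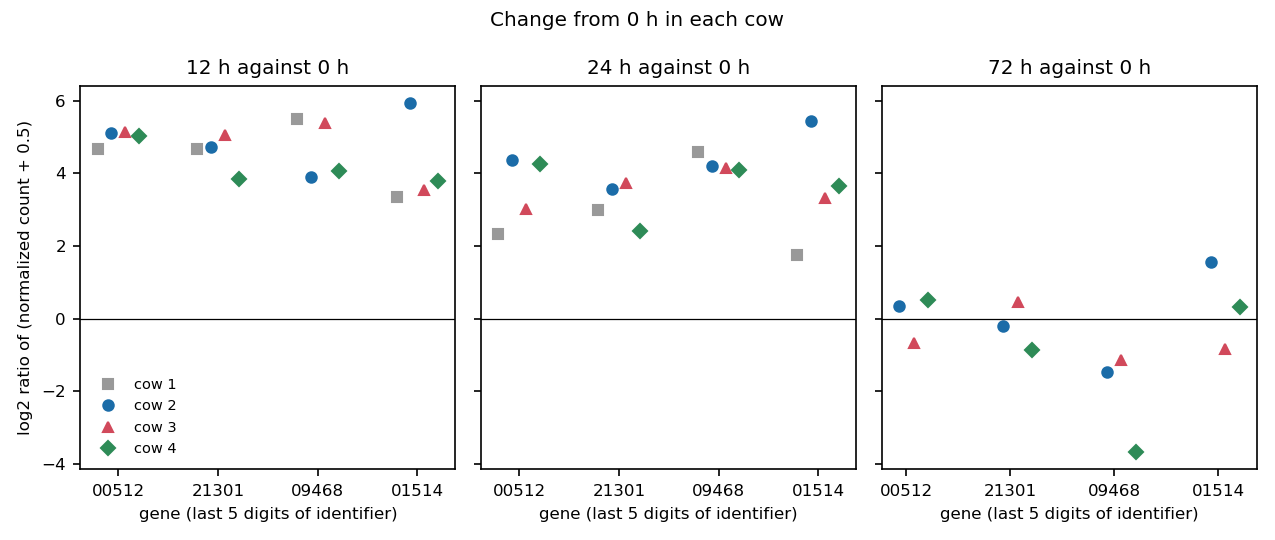
Log2 ratio of (normalized count + 0.5) at 12, 24 and 72 h against 0 h for each gene, with a point for each cow. All points lie above 0 at 12 and 24 h, between 1.74 and 5.92, while at 72 h the points of 3 genes lie on either side of 0 and those of ENSBTAG00000009468 lie below it in 3 of 3 cows.

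At 24 h post-DEX all 4 genes were still above their 0 h level, but they kept very different shares of their 12 h level. The comparisons with 0 h and with 12 h share libraries with the contrast that chose the genes, and they are given as values without a test. The 24 h values of cows 2 to 4 lay above all 0 h values for 4 of the 4 genes (8.00% of all genes tested), and below all 12 h values for 2 of the 4 (8.26% of all genes tested). The 2 genes were ENSBTAG00000000512 and ENSBTAG00000021301.

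The fitted log2 fold changes between 0 and 24 h in cows 2 to 4 were 3.87 (SE 0.45) for ENSBTAG00000000512 and 3.24 (SE 0.25) for ENSBTAG00000021301, and both values were smaller than those at 12 h. ENSBTAG00000009468 had 4.13 (SE 0.42), with values of 4.19, 4.13 and 4.08 in the 3 cows, a closer match between animals than its 3.89, 5.38 and 4.07 at 12 h. ENSBTAG00000001514 had 4.14 (SE 0.58), and 3.48 when cow 2 was left out.

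ENSBTAG00000021301 was lower at 24 h than at 12 h by a similar share in each cow. It had 33.9, 34.1 and 27.0 normalized counts at 24 h in cows 2, 3 and 4, which was 44.1%, 39.8% and 36.7% of the 12 h level. The log2 fold change from 12 to 24 h was -1.31 (SE 0.25).

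ENSBTAG00000000512 was lower in all cows but unevenly. The 24 h values of 14.3, 5.97 and 19.95 normalized counts were 58.5%, 21.5% and 57.2% of the 12 h level in cows 2, 3 and 4, and the 95% counting interval of the share in cow 3 (ratio 0.138 to 0.326) did not overlap that in cow 2 (0.432 to 0.789) or cow 4 (0.430 to 0.755). The log2 fold change from 12 to 24 h was -1.22 (SE 0.45).

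The more abundant pair of genes kept most of their level in most cows. ENSBTAG00000009468 had 168, 187 and 331 normalized counts at 24 h, so cow 2 kept 123%, cow 3 kept 42.0% and cow 4 kept 101% of the 12 h level. Cow 3 was thus the animal with the highest 12 h value and the lowest share of it at 24 h. The log2 fold change from 12 to 24 h was -0.31 (SE 0.42), and it was 0.15 without cow 3, so no direction can be given for cows 2 to 4. ENSBTAG00000001514 had 346, 443 and 823 normalized counts, which was 71.8%, 85.3% and 91.3% of the 12 h level, lower in 3 of 3 cows with overlapping groups (log2 fold change -0.28, SE 0.58).

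In cow 1, the 24 h values were 7.20 normalized counts for ENSBTAG00000000512, 29.7 for ENSBTAG00000021301, 154 for ENSBTAG00000009468 and 161 for ENSBTAG00000001514. A level at least 4-fold above 0 h remained for 3 of the 4 genes (1.36% of all genes), the exception being ENSBTAG00000001514 with a log2 ratio of 1.74. A 24 h level at least 2-fold below that at 12 h was seen for 3 of the 4 genes (6.91% of all genes), here with the exception of ENSBTAG00000009468. Cow 1 kept 18.8%, 30.9%, 53.9% and 32.8% of the 12 h level in the order of the genes above. For 3 of the 4 genes this was below each of the other cows, which was so for 22.3% of all genes on the log2(normalized count + 0.5) scale.

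That last count moved with the scaling of the libraries. The scaling factor applied by the authors was 0.938 for the 12 h library of cow 1 and 1.24 for its 24 h library, and 0.797 for its 0 h library was the lowest of all 15. In CPM, where reads are scaled by the library total without this factor, an alternative chosen after the data were seen, cow 1 kept 24.8%, 40.7%, 71.0% and 43.3% of the 12 h level, and for 1 of the 4 genes, ENSBTAG00000001514, this was below each of the other cows (62.7%, 91.2% and 88.2%), against 11.9% of all genes. With the median-ratio scaling of DESeq2, cow 1 kept 19.3%, 31.7%, 55.3% and 33.7% and was again below the other cows for 3 of the 4 genes, against 21.7% of all genes. In CPM, ENSBTAG00000009468 was at 97.5% of its 12 h level in cow 4, rather than 101%.

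**Figure D3:**
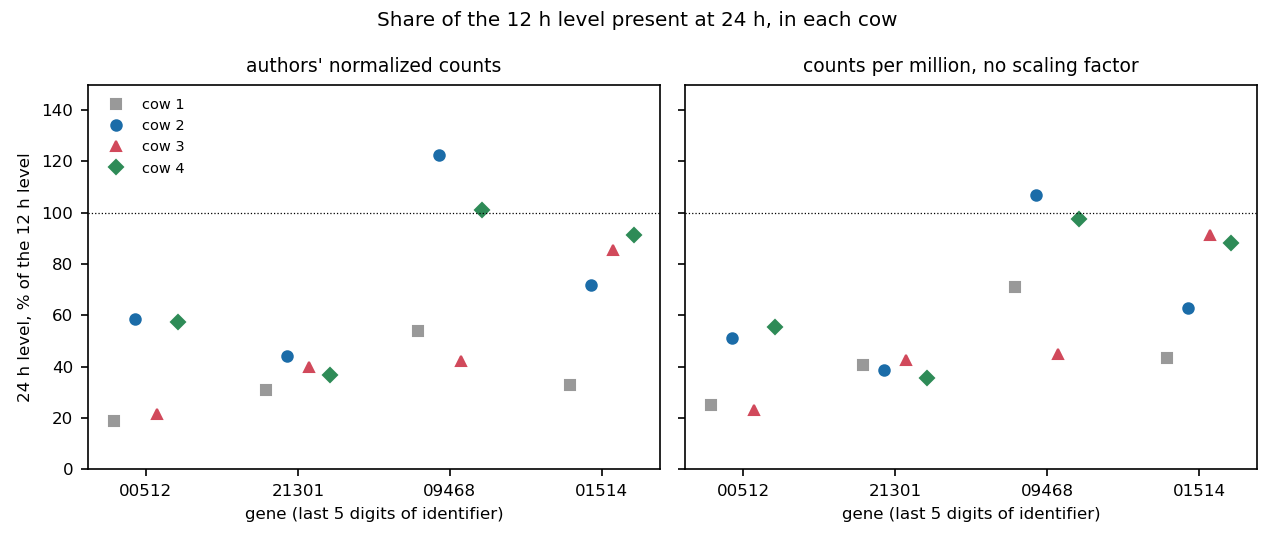
Normalized count at 24 h as a percentage of the value at 12 h, for each gene and cow, with the normalized counts of the authors (left) and with CPM (right). The dotted line marks no change; ENSBTAG00000021301 lies between 30.9% and 44.1% in the left panel, and ENSBTAG00000009468 spreads from 42.0% to 123%.

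Between 24 and 72 h all 4 genes fell, and the libraries compared played no part in choosing them. In limma, fitted to log2(normalized count + 0.5) over the 12 libraries of cows 2 to 4 with the correlation between libraries of a cow, 4 of the 4 genes were lower at 72 h than at 24 h with an adjusted p under 0.05, against 2.39% of the 13525 genes tested. That share includes many genes with few reads. Among genes that averaged at least 10 normalized counts over the 12 libraries, fitted on their own, 393 of 2922 were called lower, with 4 of the 4 among them. That average includes the 12 and 24 h libraries, where the 4 genes were raised. ENSBTAG00000000512 (0.366 at 0 h, 0.484 at 72 h) and ENSBTAG00000021301 (3.05 and 2.48) reached it only through those libraries. Nothing is therefore read from the place of the 4 genes in this smaller set. The 72 h values lay below all 24 h values for 4 of the 4 genes, which was so for 8.58% of all genes tested. The spread in this fit was estimated from all 12 libraries, so those at 0 and 12 h entered it. A gene still raised at 24 h has to fall when it returns toward its 0 h level. The calls are therefore no separate support for the rise on which the genes were chosen.

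ENSBTAG00000009468 fell most, with a log2 fold change of -6.23 (SE 0.42, limma adjusted p = 2.742e-07). It had 168, 187 and 331 normalized counts at 24 h in cows 2, 3 and 4 and 2.85, 4.33 and 1.05 at 72 h, from 7, 28 and 5 reads. The log2 fold change was -5.47 without cow 4. This was the largest fall among the 13525 genes in that fit, and in DESeq2 the gene ranked 3 from the lowest.

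ENSBTAG00000000512 was again near the limit of detection at 72 h. Its values were 14.3, 5.97 and 19.95 normalized counts at 24 h and 0.408, 0 and 1.05 at 72 h, from 1, 0 and 5 reads (log2 fold change -3.82, SE 0.45, limma adjusted p = 0.00011). With no read in cow 3 at 72 h, the level there may be up to 0.464 normalized counts.

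ENSBTAG00000021301 had 33.9, 34.1 and 27.0 normalized counts at 24 h and 2.04, 3.09 and 2.30 at 72 h (log2 fold change -3.44, SE 0.25, limma adjusted p = 6.122e-07). The 72 h levels rest on 5, 20 and 11 reads. Their coefficient of variation was 22.2%, against 8.01% at 12 h and 12.9% at 24 h.

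ENSBTAG00000001514 had 346, 443 and 823 normalized counts at 24 h and 22.8, 24.6 and 80.5 at 72 h (log2 fold change -3.79, SE 0.58, limma adjusted p = 0.00093). Cow 4 was the highest of the 3 cows at each of the 4 time points. Without cow 3 the log2 fold change was -3.62 and the limma adjusted p was 0.0501, just past the threshold of 0.05. Each of the other 3 genes passed the threshold in 15 of the 15 alternatives to this fit, and ENSBTAG00000001514 in 14.

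**Figure D4:**
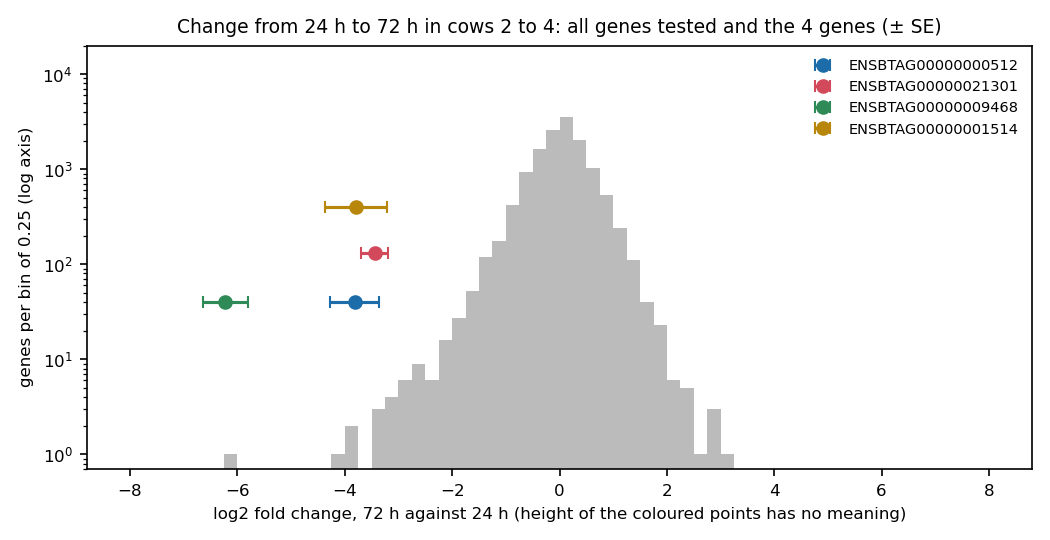
Histogram of the log2 fold change between 24 and 72 h for the 13525 genes tested in cows 2 to 4, on a log axis of gene numbers, with the 4 genes as colored points with bars of 1 SE. The 4 genes lie at -3.44 to -6.23, in the lower tail, and the height of their points has no meaning.

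Set against 0 h, 3 of the 4 genes were at 72 h on either side of their starting level. The 0 h libraries are those on which the genes were chosen, so these are values without a test. The mean of ENSBTAG00000000512 after 72 h was 0.484 ± 0.527 normalized counts (SD over 3 cows) against 0.366 ± 0.188 before DEX, with at most 5 reads in a library. For ENSBTAG00000021301 the 72 h mean was 2.48 ± 0.55 against 3.05 ± 1.38 at 0 h, lower in cows 2 and 4 and higher in cow 3. ENSBTAG00000001514 had 42.6 ± 32.8 at 72 h against 38.8 ± 29.1, and cow 2 was at 3.06 times, cow 3 at 0.556 times and cow 4 at 1.24 times the starting level. The 3 cows of this gene thus differed in direction by more than counting error, since the 95% counting interval was 1.96 to 4.83 in cow 2 and 0.442 to 0.701 in cow 3.

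ENSBTAG00000009468 was instead below its 0 h level at 72 h in 3 of 3 cows, and its groups did not overlap. Such a separation downwards was seen for 1 of the 4 genes and for 3.84% of all genes tested. Its values were 8.78, 10.2 and 19.1 normalized counts at 0 h and 2.85, 4.33 and 1.05 at 72 h in cows 2, 3 and 4. As a ratio to the starting level, cow 2 had 0.325 (95% counting interval 0.123 to 0.733), cow 3 had 0.424 (0.247 to 0.720) and cow 4 had 0.055 (0.017 to 0.141). The fitted log2 fold change was -2.09 (SE 0.42) and -1.31 without cow 4, whose 0 h library is the shallowest. In CPM the 72 h level was 34.1%, 50.3% and 7.31% of the 0 h level in the 3 cows, so it stayed below 0 h in each. The study itself reported no gene as changed between 0 and 72 h. Over all 13525 genes, the limma fit used here called 0 at 72 h against 0 h (adjusted p under 0.05). edgeR called 55 and DESeq2 22.

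The means of the 4 genes stood in the same order at each time point, but the distances between them changed. ENSBTAG00000001514 had the highest mean at each time point, and its values lay above those of ENSBTAG00000009468 in all cows at 12, 24 and 72 h. At 72 h the mean of ENSBTAG00000009468 (2.74 ± 1.65 normalized counts, SD over 3 cows) was within its spread of that of ENSBTAG00000021301 (2.48 ± 0.55), whereas at 24 h the same genes had stood at 229 ± 88.9 and 31.7 ± 4.08. ENSBTAG00000000512 lay below ENSBTAG00000021301 in all cows at all 4 time points.

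Over the 12 libraries of cows 2 to 4, the levels of the 4 genes on the log2 scale moved together, with Pearson correlations between pairs of 0.867 to 0.962 (Spearman 0.776 to 0.937). These 12 points are 4 time points of 3 cows and the genes were picked for a shared rise, so the correlations describe the time course. Once the mean of each time point was removed, the correlations between pairs ranged from -0.18 to 0.57, the highest being that of ENSBTAG00000000512 with ENSBTAG00000001514.

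Each of the 4 genes was also compared, over the same 12 libraries, with the 4794 other genes that averaged 4 normalized counts or more. The nearest in shape rose by smaller ratios at 12 h. ENSBTAG00000017527 was the most similar to both ENSBTAG00000021301 (r = 0.989) and ENSBTAG00000000512 (r = 0.976). Its mean normalized count (SD over 3 cows) went from 10.7 ± 1.77 before DEX to 38.1 ± 2.51 after 12 h, 27.6 ± 1.21 after 24 h and 11.4 ± 0.77 after 72 h. Second for both was ENSBTAG00000047502 (r = 0.981 and 0.974). It averaged 34.5 ± 15.8 before DEX, 531 ± 132 after 12 h, 331 ± 33.4 after 24 h and 42.3 ± 9.72 after 72 h. In normalized counts its rise was larger than that of ENSBTAG00000021301 or ENSBTAG00000000512. The closest to ENSBTAG00000009468 was ENSBTAG00000012757 (r = 0.980), with means of 2.54 ± 1.31, 9.66 ± 2.08, 10.1 ± 1.81 and 1.36 ± 0.60 at the 4 time points, the last differing from the first by less than the SD at 0 h. Next were ENSBTAG00000008278 (r = 0.970) and ENSBTAG00000004347 (r = 0.964), whose 72 h means lay below 0 h by more than that SD. The former went from 4.72 ± 1.46 at 0 h to 2.73 ± 0.45 at 72 h, the latter from 40.5 ± 4.68 to 24.1 ± 6.0. For ENSBTAG00000001514 the closest was ENSBTAG00000019836 (r = 0.965), with 14.8 ± 3.16, 32.1 ± 6.48, 31.0 ± 7.55 and 15.8 ± 1.17 at the 4 time points. A correlation compares the shape of a time course and not its size.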

How the data were processed

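Mammary biopsies of 4 cows gave 15 QuantSeq FWD libraries. After trimming (HTStream) and alignment (STAR 2.6.0c, UMD3.1, Ensembl release 93), the authors counted reads by gene. Their deposited values are a signal called normalized counts here, equal to CPM divided by a scaling factor for each library, for 24616 identifiers (10712 at 0 throughout). Libraries were grouped by cow and hour from their labels, and all columns were assigned to a sample. Reads were recovered by dividing by the value of 1 read, with 100% of values whole within 0.01. limma 3.58.1 (R 4.3.3), with trend, was fitted to log2(normalized count + 0.5) of the 13525 genes with a read in cows 2 to 4, with time point as factor, duplicateCorrelation for cow and Benjamini-Hochberg adjustment. This scale understates changes of low genes. The test was checked on simulated data. The simulated libraries shared no cow effect, so that check does not cover the pairing by cow.

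Libraries of a cow come from the same animal, so cow numbers pair the samples. Deviations from time point means correlated above 0.1 in 18 of 18 within-cow pairs (median 0.276, over 4795 genes). The within-cow correlation used in the limma fit was only 0.018, so its SE are close to those without a block. For ENSBTAG00000001514 between 24 and 72 h the SE was 0.58, against 0.59 without a block and 0.32 with cow as a fixed term. For ENSBTAG00000021301 these were 0.252, 0.254 and 0.256. Alternatives included edgeR 4.0.16 and DESeq2 1.42.0 on the recovered reads, also limma-voom, other scalings, pseudocounts and left-out cows, 14 planned and 1 (CPM) added after the data were seen. The 4 genes, the lists and the tests were chosen with earlier results of these data known. Genes named beside the 4 are those with the highest Pearson correlation to each. The rule gave the closest 3 for each, of which the first is printed for each gene and others for some. Lists of glucocorticoid-induced, defense, lactose synthesis and cell type marker genes by symbol, and a search of promoters, were not analysed here, since 0 identifiers could be matched to symbols. Nothing in the labels states a batch.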

Additional observations from a re-analysis of the deposited data

Results flagged for a closer look

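For each of the 4 genes, the 4 libraries at 0, 12 and 24 h were searched for an isolated library, which gave 12 groups of values. Chance flags about 1 in 20 such groups, or 0.6 of 12. At 12 h, cow 4 stood apart in ENSBTAG00000001514, where it had 902 normalized counts and cows 1 to 3 had 482 to 519.6. The gap was 0.91 of the whole range, past the 95% critical value of Dixon's test. It rests on 4499 reads.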

How the results depend on the processing

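The log2 fold change of ENSBTAG00000000512 between 0 and 12 h, which rests on 3 reads at 0 h in cows 2 to 4, was 4.99 with all 15 libraries, 6.02 with a pseudocount of 0.1, 3.70 with a pseudocount of 2, 5.94 with limma-voom, 6.36 with edgeR and 6.47 with DESeq2. Over all settings the rank of the rise at 12 h ran from 2 to 7 for this gene, from 3 to 22 for ENSBTAG00000021301, from 3 to 32 for ENSBTAG00000009468 and from 2 to 51 for ENSBTAG00000001514, with the lowest ranks of the last 3 in edgeR. No gene changed direction at 12 h, at 24 h against 0 h or between 24 and 72 h in any setting. At 72 h against 0 h, ENSBTAG00000009468 was lower in 16 of 16 settings, and the other 3 genes changed sign in some.

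Between 24 and 72 h, ENSBTAG00000001514 ranged from -4.02 to -3.62 with a cow left out, and lost its call without cow 3. All genes called numbered 482, of which 159 were higher and 323 lower at 72 h. edgeR called 988 (559 lower), and leaving out a cow gave 103 to 176 (70 to 131 lower). The direction of these calls depends on the scaling, with 189 higher and 247 lower after quantile normalization, and 427 higher and 152 lower in CPM, which moved the median of all genes by 0.17. In CPM the falls of the 4 genes still passed the threshold. With cow as a fixed term, which is the replicate block in another form, 653 genes were called, and without a block 459, and no call of the 4 genes changed. The cause of these differences was not tested. Depth limits the low levels of ENSBTAG00000000512 at 0 and 72 h.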
